A study of Mus musculus with 9 samples.

Results

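Gng4 and the related gamma subunits of heterotrimeric G proteins were followed across 9 RNA sequencing libraries of mouse N2A cells. The members were the genes of the deposited expression table named Gng2, Gng3, Gng4, Gng5, Gng7, Gng10, Gng11 or Gng12. The table of 15977 genes held 5 of these 8, Gng2, Gng4, Gng5, Gng7 and Gng10, and Gng3, Gng11 and Gng12 were not analysed here. Gng4 was chosen by its measured difference between S970D and WT libraries, so its values are given as a description, with no test in any comparison. The other 4 were taken by family name, and their differences come from a fit over all 15977 genes.

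N2A is a line from a mouse neuroblastoma, a tumour of the sympathetic nervous system, which the labels call a neurocarcinoma line. All 9 libraries came from N2A cells with a knockout of MOV10, an RNA helicase, into which 2 micrograms of DNA encoding a form of MOV10 had been transfected 24 hours before harvest. S970D MOV10 carries aspartate in place of a serine, S970A MOV10 carries alanine in place of the same serine, and WT MOV10 is unaltered, with 3 libraries of each. Aspartate has a negative charge that is often used to stand in for a phosphate, and alanine cannot be phosphorylated. No untransfected library was analysed here, the labels do not say what share of cells took up the DNA, and they name neither the knockout clone nor separate cultures for the replicates. The p-values therefore measure only the spread between these libraries, which may be technical. Values are log2 CPM, counts scaled for library size on a log2 scale, as the authors deposited them, and the depth of each library is unknown because the table holds no read counts.

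Heterotrimeric G proteins carry signals from receptors in the plasma membrane. When a receptor is activated, the alpha subunit exchanges GDP for GTP and parts from a tight dimer of a beta and a gamma subunit, and both parts act on ion channels and enzymes. The gamma subunit is a small protein that ends in a CaaX box, a cysteine followed by 3 more residues. A lipid is attached to that cysteine, the last 3 residues are cut off and the new end is methylated, which anchors the dimer in the membrane. Gng4 is found mostly in neural tissue, and Gng2 is a common partner of beta subunits in many tissues. Gng5 and Gng10 are widely expressed, and Gng7 is known from the striatum, where it works with the alpha subunit of the Golf type.

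The coding ends below show the feature these subunits share and how closely Gng4 resembles Gng2. Each line gives the last 30 coding bases before the stop codon, 5′ to 3′ on the coding strand, from the GENCODE vM21 transcripts of GRCm38, and the capitals mark the 4 codons of the CaaX box. Gng8, Gng13 and Gngt2, the other gamma subunits in the table, stand with them.
Gng4: cgggagaagaagttcttcTGCACCATCCTC
Gng2: cgggagaagaagttcttcTGCGCCATCCTT
Gng5: ttcagaccccagaaagtcTGCTCCTTTTTG
Gng7: ttcaaagacaaaaagcctTGCATAATTCTC
Gng10: ttccgggagcccaggtccTGTGCTCTACTT
Gng8: cgcgacaagcgactctttTGCACCCTGCTC
Gng13: tgggtagagaaggccaagTGCACCATCCTA
Gngt2: ttcaaggagaaaggcactTGTGTGCTAAGC
All 8 boxes begin with a cysteine codon, TGC in 6 and TGT in 2. The last codon is a leucine codon in 7 of them and AGC in Gngt2. In CaaX proteins a final leucine is known to favour the longer geranylgeranyl lipid and a final serine the shorter farnesyl lipid. Gng2 and Gng4 are identical in the 18 bases before the box and in 28 of the 30 bases shown.

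Over the whole coding sequence the resemblance is looser. The 225 coding bases of Gng4 read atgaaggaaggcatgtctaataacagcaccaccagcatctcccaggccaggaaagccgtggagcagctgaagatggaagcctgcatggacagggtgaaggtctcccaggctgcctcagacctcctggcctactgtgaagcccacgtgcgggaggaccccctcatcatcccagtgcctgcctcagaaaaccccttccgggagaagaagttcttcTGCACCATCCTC, again with the box in capitals. Aligned with Gng4, the coding sequence of Gng2 was identical at 73.3% of positions, that of Gng8 at 65.3%, of Gng7 at 62.7%, of Gng10 at 59.8%, of Gng13 at 54.3%, and of Gng5 and Gngt2 at 53.0% each. Few stretches are shared with other genes, except for Gng10. Of the runs of 31 bases in Gng4 transcripts, 1.96% also occur on the same strand in transcripts of another gene, and the same share was 1.37% for Gng2, 9.39% for Gng5 and 0.0794% for Gng7. For Gng10 it was 71.9%, all of it shared with the overlapping gene Gm20503 on the same strand, which was not analysed here, so counts of Gng10 are uncertain.

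The genes lie on separate chromosomes. Gng4 (ENSMUSG00000021303.14) lies at chr13:13784059-13827896 on the plus strand of GRCm38, and its transcript has 3179 bases. Gng2 (ENSMUSG00000043004.13) lies at chr14:19872559-19977627 on the minus strand and has 6 complete coding transcripts of 393 to 3826 bases. Gng5 (ENSMUSG00000068523.12) lies at chr3:146499807-146505572 on the plus strand, with 3 such transcripts of 593 to 2419 bases. Gng7 (ENSMUSG00000048240.14) lies at chr10:80948624-81014945 on the minus strand, with transcripts of 875 to 3433 bases. Gng10 (ENSMUSG00000038607.12) lies at chr4:59035088-59041903 on the plus strand, and its transcript has 1192 bases. These lengths matter below, because a correction for length depends on which transcript stands for a gene.

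MOV10 is known to work with microRNAs, so the 3′ UTRs of the members were searched for the 7 bases that pair with the seed of let-7, a microRNA family abundant in nervous tissue. The mature let-7a-5p reads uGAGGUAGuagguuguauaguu, with the seed, bases 2 to 8, in capitals. The matching letters CTACCTC, read on the transcript strand only, occurred once in the Gng5 3′ UTR, in agtccttaacatCTACCTCtctgaatttca, where the capitals mark the match. The matching letters occur after the stop codon in all 3 complete coding transcripts of Gng5. The letters were in 14.2% of the 1624 UTRs whose length was within 20% of that of Gng5, and they were not in the UTR used for Gng4, Gng2, Gng7 or Gng10. The mature sequence is from RefSeq (GRCm38.p6).

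Some facts of the whole series touch every value. The first principal component, with Mov10 left out, held 64.0% of the variance. Its scores were 39.9 to 71.4 in S970D libraries, 65.7, -35.0 and -53.0 in S970A replicates 1, 2 and 3, and -74.0 to -7.17 in WT libraries, so S970A replicate 1 stood with the S970D libraries and the other S970A libraries with WT. Mov10 itself, which counts the transfected DNA's transcript where that is mouse sequence, averaged 14.72 ± 0.14 in S970D, 15.09 ± 0.42 in S970A and 15.37 ± 0.41 in WT libraries (log2 CPM, SD, n = 3 each). Every S970D library (14.57 to 14.84) lay below every WT library (14.90 to 15.71). The Mov10 level and the form of MOV10 therefore cannot be told apart between S970D and WT. Of 15 markers of sympathetic neuronal cells 13 were measured, 11 of them above a mean of 1 CPM. They summed to 3100 to 3679 CPM in S970D, 2200 to 3404 in S970A and 2263 to 2484 in WT libraries. Markers of fibroblasts, endothelium, leukocytes, glia and epithelium summed to at most 21.0 CPM per list in any library, with 1 to 3 of 8 measured in each list. The fibroblast sum was lower in every S970D library (12.98 to 15.9 CPM) than in any WT library (16.0 to 21.0 CPM). The epithelial sum was higher, at 2.003 to 3.62 CPM in S970D and 1.61 to 1.88 CPM in WT libraries, as was the leukocyte sum, which is Cd68 alone, at 1.24 to 2.28 CPM in S970D and 0.498 to 0.746 CPM in WT libraries. The endothelial sums, 10.6 to 17.98 CPM in S970D and 9.29 to 10.7 CPM in WT libraries, and the glial sums, 7.02 to 8.69 CPM in S970D and 7.21 to 10.1 CPM in WT libraries, overlapped. Their part in the results was not tested.

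Gng4 was low in every S970D library. Its log2 CPM was 1.13, 0.55 and 0.78 in S970D libraries, 1.40, 1.1 and 3.15 in S970A libraries, and 4.23, 4.04 and 3.20 in WT libraries. Every S970D and S970A library lay below every WT library, although S970A replicate 3 was close to the lowest WT library. In CPM, Gng4 averaged 1.79 ± 0.37 in S970D, 4.54 ± 3.74 in S970A and 14.8 ± 5.01 in WT libraries (SD, n = 3 each).

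The difference of Gng4 between S970D and WT was -3.005 ± 0.51 (log2, SE), a fold of 0.125, and that between S970A and WT was -1.94 ± 0.51, a fold of 0.260. S970D and S970A differed by -1.06 ± 0.51, with overlapping values. Among all genes, 43 (0.269%) had a difference at or below that of Gng4 between S970D and WT, 32 (0.2%) between S970A and WT, and 260 (1.63%) between S970D and S970A. The first of these values chose Gng4, and the WT libraries are shared by the first 2 comparisons. These are bulk samples, so fewer cells with Gng4 transcripts and fewer transcripts per cell cannot be told apart.

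The S970A libraries were far apart for Gng4. Their range was 2.05 on the log2 scale, and 4.54% of all genes had a range at least as wide in S970A, where the median range was 0.75. The WT range was 1.03, as wide or wider in 12.5% of genes, and the S970D range of 0.58 was matched or passed by 30.8%. Without S970A replicate 3 the difference was -2.57 between S970A and WT and -0.43 between S970D and S970A. The low S970A libraries for Gng4 were replicates 1 and 2, whereas on the first principal component replicate 1 stood apart from the other S970A libraries.

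**Figure D1:**
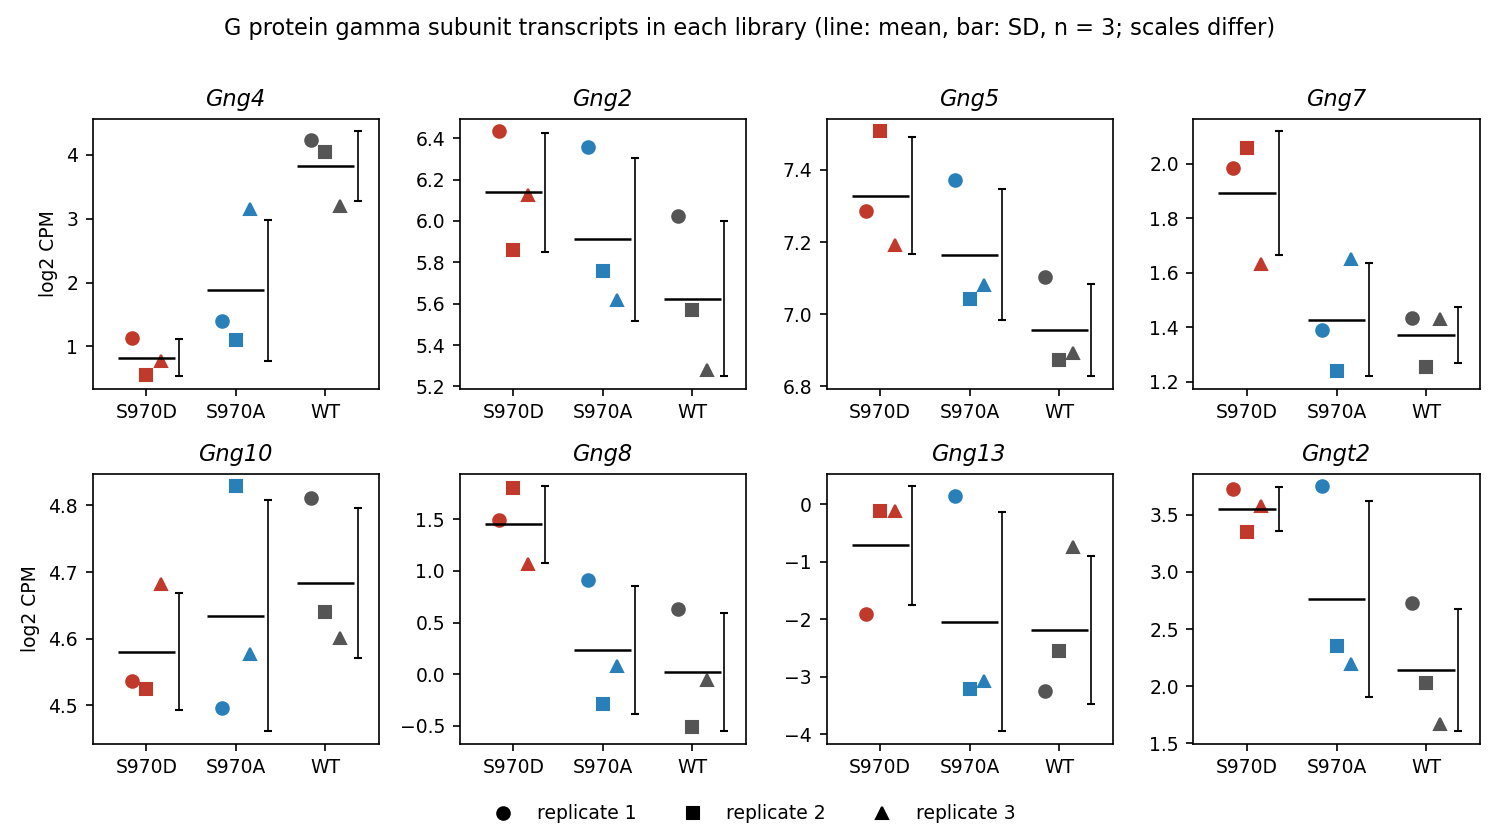
Log2 CPM of the 8 gamma subunits in the table, a panel each, in S970D, S970A and WT libraries from left to right. A point is a library with its marker giving the replicate number, the line is the mean of 3 and the bar the SD, and the vertical scales differ. Gng4 is below every WT library in all S970D and S970A libraries, while Gng5 and Gng7 are above every WT library in all S970D libraries and Gng10 overlaps.

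Gng2, Gng5, Gng7 and Gng10 did not share the low S970D level of Gng4. None of these 4 passed at an adjusted p under 0.05 between S970D and WT in the fit without a replicate block, in which 1 gene of 15977 (0.00626%) passed, and 2 of the 4 had an unadjusted p under 0.05, as did 44.3% of all genes. That gene, the chemokine Cxcl1, is named because it was the only call. The replicate numbers were taken as pairs of S970D and WT libraries from the correlation of their deviations alone. No label says what a number marks, and libraries of unlike number were not compared, so the pairing was not tested. With the number as a block 7276 genes (45.5%) passed, among them 1 of the 4, Gng2. The block was fitted over all 9 libraries, the S970A libraries included. With so many calls among all genes, a call of a gamma subunit is no sign that the family stands apart.

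Gng2 had a log2 CPM of 6.44, 5.86 and 6.12 in S970D libraries, 6.36, 5.76 and 5.62 in S970A libraries, and 6.02, 5.57 and 5.28 in WT libraries. The S970D and WT values overlapped, but within each replicate number the S970D library was the higher. The S970D minus WT difference was 0.52 ± 0.26 (log2, SE, 95% interval -0.07 to 1.1). Its adjusted p by limma was 0.150 without and 0.0190 with the block.

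Gng5 was the most abundant member in CPM. Its log2 CPM was 7.29, 7.51 and 7.19 in S970D libraries, 7.37, 7.04 and 7.08 in S970A libraries, and 7.10, 6.87 and 6.89 in WT libraries. All S970D values lay above all WT values. The difference was 0.37 ± 0.15 (log2, SE), with limma adjusted p-values of 0.0955 without and 0.0521 with the block, so it did not pass.

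Gng7 was 1.99, 2.06 and 1.63 in S970D libraries, 1.39, 1.24 and 1.65 in S970A libraries, and 1.43, 1.25 and 1.43 in WT libraries (log2 CPM). The S970D values again lay above all WT values. The difference of 0.52 ± 0.19 (log2, SE) did not pass, with limma adjusted p-values of 0.0806 without and 0.0644 with the block. Counting Gng4, 3 of the 5 members had groups that did not overlap between S970D and WT, 1 lower and 2 higher in S970D, and over all genes the share was 57.2%, with 29.3% lower and 27.9% higher.

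Gng10 differed least. Its log2 CPM was 4.54, 4.52 and 4.68 in S970D libraries, 4.50, 4.83 and 4.58 in S970A libraries, and 4.81, 4.64 and 4.60 in WT libraries, with overlap among all 3 groups. The S970D minus WT difference was -0.10 ± 0.14 (log2, SE, 95% interval -0.42 to 0.22, limma adjusted p = 0.579). Its sign turned under other scalings, to 0.010 with quantile normalization and 0.0094 with median centring, which moved the median of all genes to 0.11.

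Once trends over GC content and length were removed, the directions of Gng2, Gng5 and Gng7 depended on the transcript assumed for each. When the trend over GC content and transcript length was removed in every library, with the transcript of the longest coding sequence for each gene, the S970D minus WT differences were 1.06 for Gng2 and 0.92 for Gng5 (log2), and limma adjusted p-values with the block were 0.0146 and 0.0153, in a fit where 24.8% of all genes passed. The shortest coding transcript of each gamma subunit was then put in its place, a choice made after the data were seen. All other genes kept the transcript of the longest coding sequence, so the trend rested on unlike choices. The differences were -0.25 for Gng2, -0.23 for Gng5 and -0.090 for Gng7. None of the 4 then passed with the block. The table does not tell transcripts apart, so which of these applies was not tested. The Gng4 difference was -2.83 under both corrections, because a single coding transcript is annotated for it.

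Among the other gamma subunits, which were listed with earlier results known, 3 of 5 were measured. Gng8, known from olfactory and vomeronasal neurons, was 1.49, 1.80 and 1.06 in S970D libraries, 0.91, -0.29 and 0.08 in S970A libraries, and 0.63, -0.51 and -0.05 in WT libraries (log2 CPM). Every S970D library lay above every S970A and WT library. The S970D minus WT difference was 1.43 ± 0.39 (log2, SE), with limma adjusted p-values of 0.0756 without and 0.0106 with the block.

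Gngt2, the gamma subunit of cone photoreceptors, was 3.72, 3.35 and 3.58 in S970D libraries, 3.75, 2.35 and 2.19 in S970A libraries, and 2.73, 2.03 and 1.67 in WT libraries (log2 CPM). S970A replicate 1 lay with the S970D libraries, as on the first principal component. The S970D minus WT difference was 1.41 ± 0.42 (log2, SE), with limma adjusted p-values of 0.0756 without and 0.00708 with the block. With GC and length trends removed and the block, Gngt2 passed (0.0160) and Gng8 did not (0.139).

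Gng13, known from taste and olfactory cells, was -1.91, -0.12 and -0.11 in S970D libraries, 0.15, -3.21 and -3.08 in S970A libraries, and -3.26, -2.56 and -0.75 in WT libraries (log2 CPM). The values ran from within 1 log2 unit of the table's lowest value, -4.09, to above 0, and the groups overlapped. The S970D minus WT difference was 1.47 ± 1.00 (log2, SE, limma adjusted p = 0.266). Of its runs of 31 bases, 46.2% also lie on the opposite strand of Chtf18, a gene that overlaps it and itself differed by 1.68 ± 0.52 between S970D and WT (log2, SE), with limma adjusted p-values of 0.0756 without and 0.00642 with the block. The part of Chtf18 in the Gng13 values was not tested. That share was 8.26% for Gngt2, with Abi3, and 19.5% for Gng2, mostly with Gm48283. The library kit keeps the strand, per the labels' protocols, but whether the counting used it is not given in the sources used here.

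**Figure D2:**
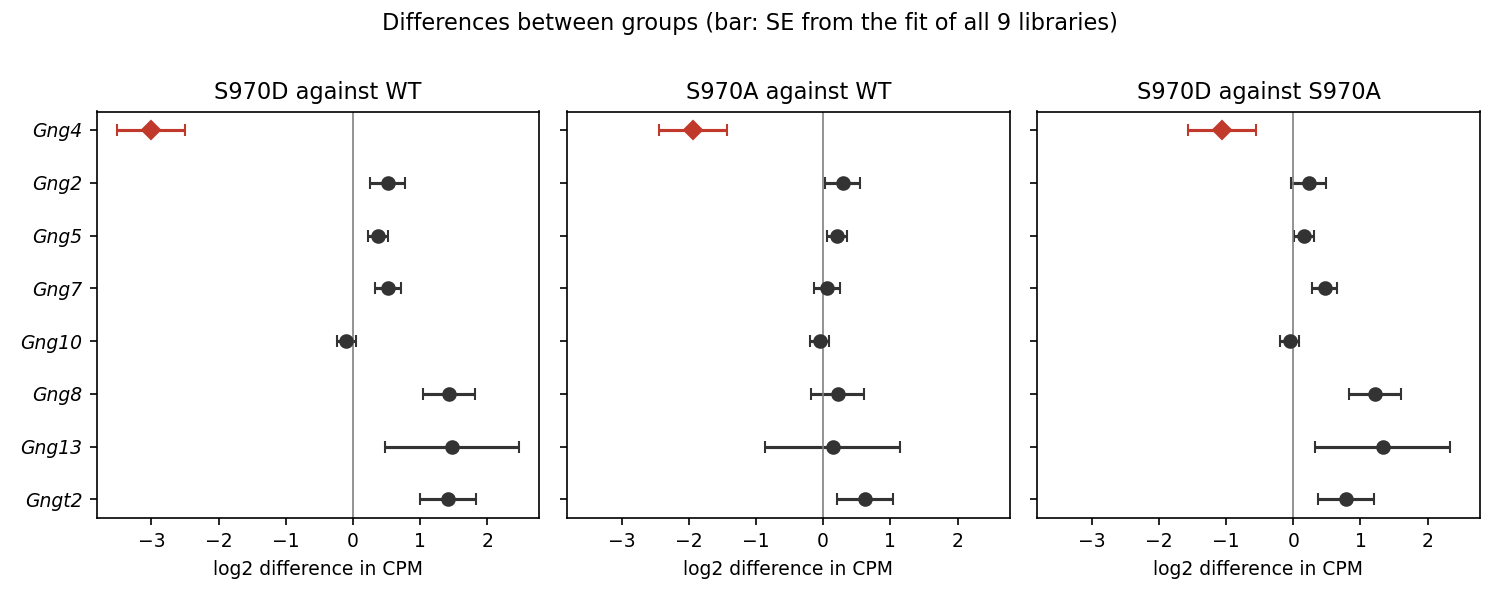
Log2 differences of the 8 gamma subunits for S970D minus WT, S970A minus WT and S970D minus S970A, a panel each, with bars for the SE of the fit and Gng4 as a red diamond. Gng4 is at -3.005, -1.94 and -1.06, and the other gamma subunits lie between -0.10 and 1.47 in all 3 comparisons.

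Between S970A and WT no tested gamma subunit passed, with the replicate block or without it. Of all genes 0% passed by limma's adjusted p, 280 (1.75%) had an unadjusted p under 0.05, and none of the 4 other members did. Their S970A minus WT differences were 0.29 ± 0.26 for Gng2, 0.21 ± 0.15 for Gng5, 0.05 ± 0.19 for Gng7 and -0.05 ± 0.14 for Gng10 (log2, SE). Limma adjusted p-values were 0.776 to 0.912. The 95% interval ran from -0.30 to 0.88 for Gng2 and from -0.13 to 0.55 for Gng5, so neither direction is excluded. Gng4 was the only one of the 5 members whose S970A and WT values did not overlap, being lower in S970A, against 6.42% of all genes, 3.1% higher and 3.32% lower.

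Between S970D and S970A no member had groups without overlap, against 8.07% of all genes, and 0% of genes passed. Of the 4 members beside Gng4, 1 had an unadjusted p under 0.05, Gng7, as did 1110 of all genes (6.95%). The S970D minus S970A differences were 0.47 ± 0.19 for Gng7, 0.23 ± 0.26 for Gng2, 0.16 ± 0.15 for Gng5 and -0.05 ± 0.14 for Gng10 (log2, SE), with limma adjusted p-values of 0.411 to 0.822. Gng8 differed by 1.22 ± 0.39 (log2, SE, adjusted p = 0.411) with no overlap.

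S970A replicate 1 decided many of these calls. Without it, 7615 genes (47.7%) passed between S970D and WT, 22.8% higher and 24.9% lower in S970D. Gng5 (adjusted p = 0.0349), Gng7 (0.0471), Gng8 (0.00942) and Gngt2 (0.00630) were among the higher ones, all by limma, while Gng2 (0.0694) did not pass. Between S970D and S970A, 6307 genes (39.5%) then passed, with Gng8 (0.0163), Gngt2 (0.0153) and Gng13 (0.0393) but none of Gng2, Gng5, Gng7 and Gng10. The value of Gng13 in that library, 0.15, was the highest of its 9.

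Levels of different genes were compared per kilobase of transcript, with the longest and then the shortest complete coding transcript. In S970D libraries Gng5 had 66.7 to 272 CPM per kilobase, Gng2 18.7 to 182, Gng10 20.1, Gngt2 7.43 to 23.7, Gng8 3.07 to 6.47, Gng7 1.09 to 4.28, Gng13 0.978 to 2.03 and Gng4 0.562. In WT libraries Gng5 had 51.5 to 210 CPM per kilobase, Gng2 13.2 to 128, Gng10 21.6, Gng4 4.66, Gngt2 2.92 to 9.29, Gng8 1.18 to 2.48, Gng7 0.755 to 2.96 and Gng13 0.403 to 0.834. Gng4 thus had the lowest value of the 8 in S970D libraries, whereas in WT libraries it was above Gng7, Gng8 and Gng13 whichever transcript was used. In S970A libraries it was at 1.43, within the spans of Gng7 (0.789 to 3.09) and Gng8 (1.38 to 2.90). In S970D and WT libraries the spans of Gng2 overlapped those of Gng5 and Gng10, and the spans of Gng7 those of Gng8 and Gng13, so these orders cannot be settled without knowing the transcript, whereas Gng8 was above Gng13 with either transcript.

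As a share of the summed CPM of the 5 members, Gng4 made up 0.804%, 0.546% and 0.695% in S970D libraries, 0.959%, 0.977% and 4.01% in S970A libraries, and 7.44%, 7.91% and 4.73% in WT libraries. The sum itself was 272, 269 and 246 CPM in S970D libraries, 276, 219 and 221 in S970A libraries, and 252, 208 and 194 in WT libraries. Gng5 held 54.6% to 67.7% of the sum in every library, and Gng2 held 20.04% to 31.8%. These shares are of CPM and not of molecules, since the transcripts differ in length.

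The genes most like Gng4 were those with the smallest root mean square difference from it over the 9 libraries, each gene's log2 CPM first set relative to its own mean. They were Cxcl9 (0.78), Cxcl1 (0.78), Dynlt1c (0.79), Smim10l1 (0.81) and Muc3 (0.83). Gng4 itself deviated from its mean by 1.38 on the same scale, so even the nearest genes followed it loosely. Cxcl9 and Cxcl1 encode secreted chemokines, Dynlt1c a light chain of the motor protein dynein, and Muc3 a mucin.

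The nearest genes were picked for their likeness to Gng4 in these same libraries, so a shared pattern is a description and no test. Cxcl1 was 1.38, 1.499 and 1.56 in S970D libraries, 2.52, 3.36 and 3.22 in S970A libraries, and 3.69, 3.96 and 4.14 in WT libraries (log2 CPM), so its 3 groups did not overlap. Of all genes, 57.2% did not overlap between S970D and WT, 6.42% between S970A and WT and 8.07% between S970D and S970A. Smim10l1 was 3.83, 4.73 and 4.16 in S970D libraries, 3.61, 4.10 and 5.71 in S970A libraries, and 5.54, 5.79 and 6.12 in WT libraries (log2 CPM). Like Gng4, Smim10l1 was high in S970A replicate 3 and low in replicates 1 and 2. Cxcl9 and Muc3 were below 0 on the log2 CPM scale in every library.

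**Figure D3:**
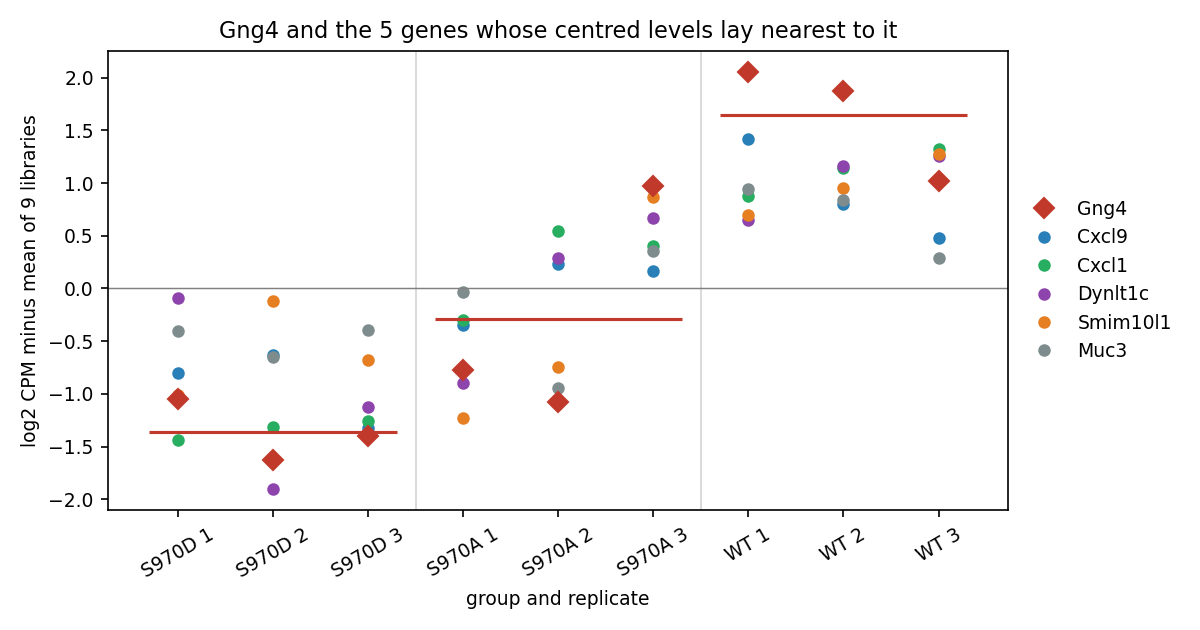
Log2 CPM relative to each gene's mean over the 9 libraries, for Gng4 and the 5 genes nearest to it, in S970D, S970A and WT libraries. Points are libraries and the red line is the group mean of Gng4, which is lowest in S970D and highest in WT. Smim10l1 has the same high S970A replicate 3 as Gng4.

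The other gamma subunits had closer matches. The nearest gene was Mark3 for Gng2 (0.079, against Gng2's own deviation of 0.36), Gstz1 for Gng5 (0.044 against 0.20), Prr18 for Gng7 (0.14 against 0.28) and Pigf for Gng10 (0.048 against 0.11). For the other gamma subunits it was Mrpl54 for Gngt2 (0.064 against 0.75), Riiad1 for Gng8 (0.21 against 0.77) and Kcne1 for Gng13 (0.66 against 1.36).

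The partners of the gamma subunits were followed in lists chosen with earlier results known. No member of any of them passed between S970D and WT in the fit of all 9 libraries without the block. The counts that follow are with the block, against 22.2% of all genes higher and 23.3% lower. All 5 beta subunits were measured, 1 was higher and 1 lower, and the median difference was -0.01, against -0.00 over all genes. Gnb2, a widely expressed beta subunit, was 9.58, 8.995 and 9.22 in S970D libraries, 9.40, 8.30 and 8.04 in S970A libraries, and 8.63, 8.05 and 8.12 in WT libraries (log2 CPM). Every S970D value was above every WT value, with a difference of 1.00 ± 0.34 (log2, SE) and limma adjusted p-values of 0.0759 without and 0.00733 with the block. Gnb4 was 4.82, 4.77 and 5.005 in S970D libraries, 4.84, 5.39 and 5.30 in S970A libraries, and 5.18, 5.42 and 5.48 in WT libraries (log2 CPM), lower in every S970D library than in any WT library by a mean of 0.50, with limma adjusted p-values of 0.0783 without and 0.0216 with the block. Gnb3, of cone photoreceptors, differed by 0.74 ± 0.47 (log2, SE) and did not pass (0.183 with the block, by limma). Neither Gnb2 nor Gnb4 passed with the block once GC and length trends were removed (0.215 and 0.554).

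Of 16 alpha subunits 12 were measured, 2 were higher and 1 lower with the block, and the median difference was 0.10. Gnai3, an inhibitory alpha subunit, was 5.41, 5.64 and 5.67 in S970D libraries, 5.37, 6.41 and 6.49 in S970A libraries, and 6.20, 6.49 and 6.68 in WT libraries (log2 CPM). It fell by 0.88 with an adjusted p of 0.00875 with the block by limma. Its relative Gnai2 rose by 0.50 ± 0.19 (0.0209 with the block), and Gna13, another alpha subunit, by 0.40 ± 0.15 (0.0420 with the block). With GC and length trends also removed, Gna13 passed (0.0189) and Gnai3 (0.0734) and Gnai2 (0.428) did not. Of the 12 alpha subunits 2 passed in that fit, 2 higher and 0 lower, against 12.7% of all genes higher and 12.1% lower.

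The lipid anchor and the assembly of the dimer need their own machinery, of which 13 of 14 listed genes were measured. With the block 3 were higher and 2 lower, with a median difference of -0.05. Icmt, the methyltransferase of the processed end, was 6.63, 6.01 and 6.72 in S970D libraries, 6.71, 5.29 and 5.28 in S970A libraries, and 5.23, 5.18 and 5.18 in WT libraries (log2 CPM). Its difference of 1.26 ± 0.37 (log2, SE) had limma adjusted p-values of 0.0756 without and 0.0121 with the block, and 0.0234 with GC and length trends removed as well. S970A replicate 1 was again with the S970D libraries. Fntb, a subunit of farnesyltransferase, rose by 0.54 ± 0.20 (0.0145 with the block) and Zmpste24, a CaaX protease best known for lamin A, fell by 0.63 (0.0172 with the block). The other 2 that passed, named after their values were seen, were Pdcl, a chaperone of beta-gamma assembly, at -1.11 ± 0.46, and Rce1, the protease that cuts the last 3 residues, at 0.53 ± 0.22. Of these 4, Pdcl alone passed with the trends removed (0.0275). Of all 13 genes, 4 passed in that fit with the block, 3 higher and 1 lower, against 12.7% of all genes higher and 12.1% lower.

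Genes listed with the effectors of the beta-gamma dimer were mostly below 0. Whether the product of each, such as Plcb4, binds the dimer was not tested. Of 27 listed genes 17 were measured, 12 of them below 0 (8005 of 15977 over all genes), and with the block 1 was higher and 7 lower, with a median difference of -0.31. Cacna1b, the pore of the N-type calcium channel that beta-gamma inhibits, was the higher one, at 6.18, 5.63 and 5.90 in S970D libraries, 5.74, 5.37 and 5.44 in S970A libraries, and 4.76, 5.29 and 5.09 in WT libraries (log2 CPM). Its difference was 0.86 ± 0.20 (log2, SE), with limma adjusted p-values of 0.0756 without and 0.0119 with the block, and 0.0163 with the trends removed as well. Plcb4, a phospholipase C, fell by 0.91 (0.00642 with the block) and Grk3, the receptor kinase that beta-gamma brings to the membrane, by 0.71 (0.0164 with the block). The other 5 lower genes, named after their values were seen, were Pik3cb, Adcy3, Adcy6, Prex1 and Snap25, with differences of -0.97 to -0.49. After removal of the trends 3 of the 17 effectors passed with the block, 1 higher and 2 lower, where 12.7% of all genes were higher and 12.1% lower.

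Among regulators of the G protein cycle 15 of 23 listed genes were measured, 3 were higher and 1 lower with the block, and the median difference was 0.24. Gpsm3, which binds inhibitory alpha subunits, differed by 1.39 ± 0.38, Gnb1l, a protein related to beta subunits, by 1.24 ± 0.37, and Rgs19, which speeds GTP hydrolysis by alpha subunits, by 0.82 ± 0.27 (log2, SE), with limma adjusted p-values of 0.0125, 0.0240 and 0.00919 with the block. Rgs19 alone of these passed with the trends removed (0.0316). The lower gene, named after its values were seen, was Gpsm2, which orients the mitotic spindle, at 4.78, 5.001 and 5.47 in S970D libraries, 4.16, 6.22 and 6.34 in S970A libraries, and 5.87, 6.62 and 6.86 in WT libraries (log2 CPM). In S970A replicate 1 it was lower than in any S970D library. With the trends removed and the block, 4 of the 15 regulators passed between S970D and WT, 2 higher and 2 lower, against 12.7% of all genes higher and 12.1% lower. No member of these lists passed between S970A and WT, where limma adjusted p-values were at least 0.776, or between S970D and S970A, where they were at least 0.411. Without S970A replicate 1, calls between S970D and S970A were 2 of 5 beta subunits, 3 of 12 alpha subunits, 4 of 13 prenylation and assembly genes, 6 of 17 effectors and 4 of 15 regulators, against 39.5% of all genes. Leaving out that library also gave calls between S970D and WT without the block. They were 2 of 5 beta subunits, 3 of 12 alpha subunits and 5 of 13 prenylation and assembly genes. Of effectors 8 of 17 passed and of regulators 5 of 15, against 47.7% of all genes.

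**Figure D4:**
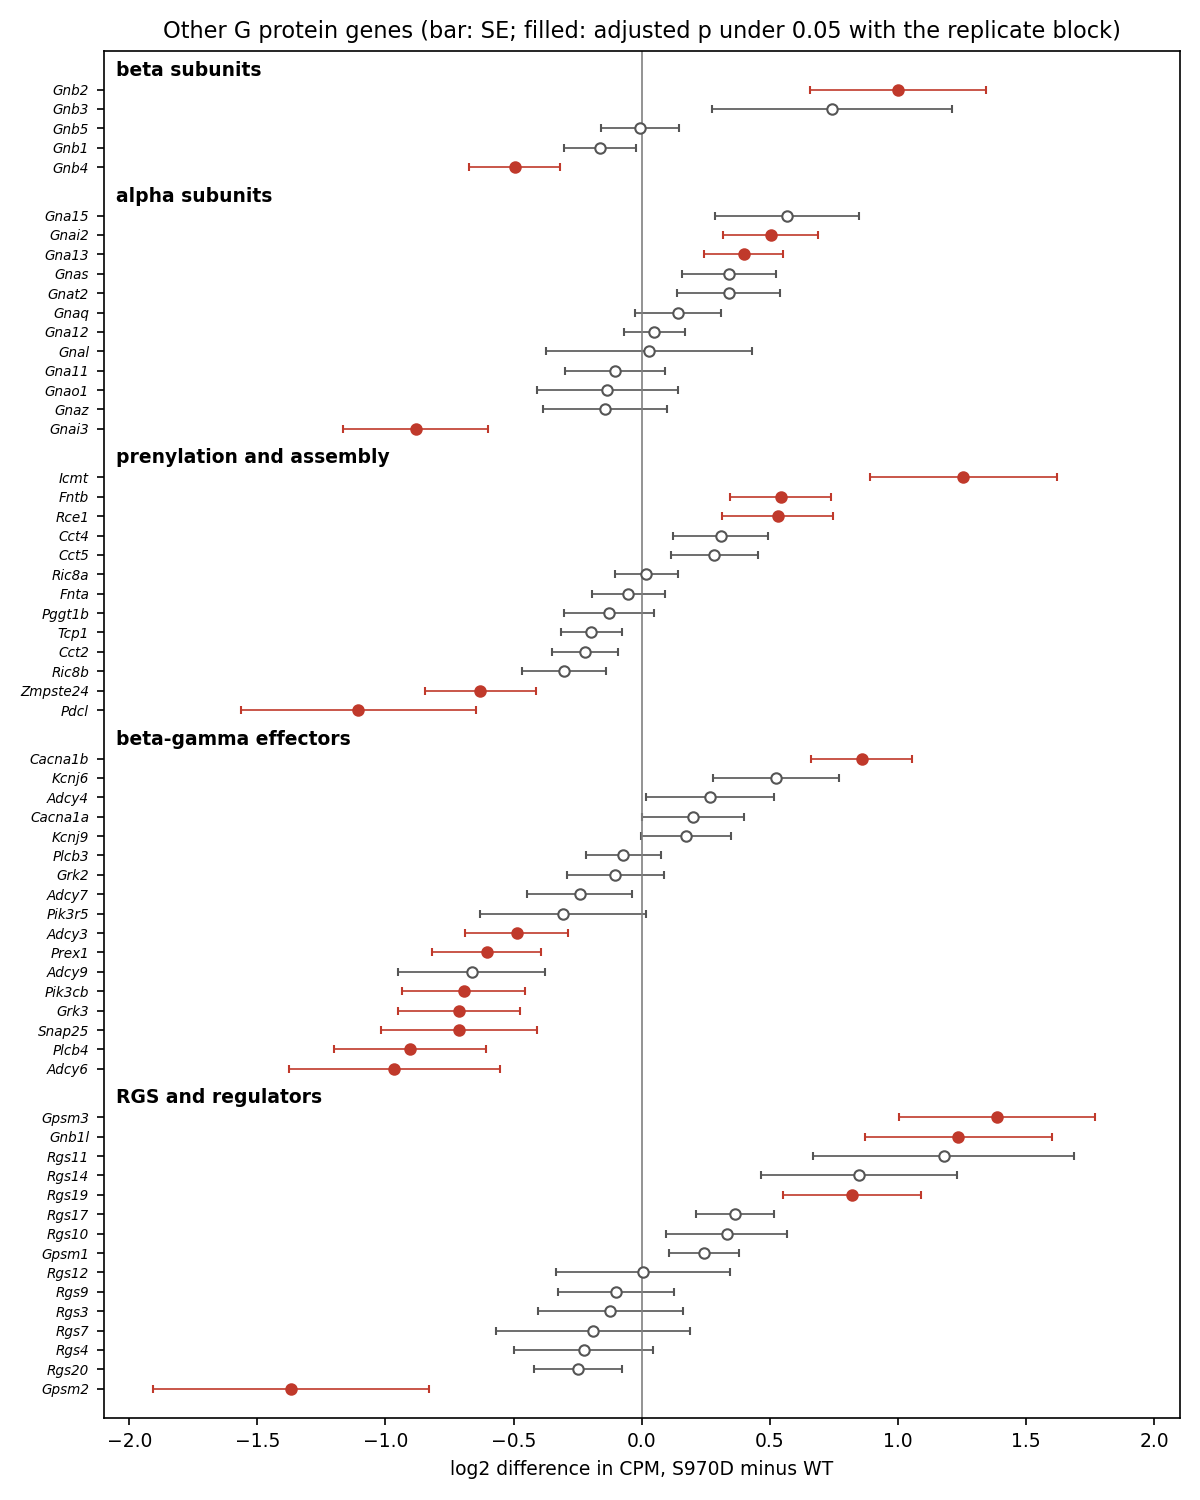
Log2 differences, S970D minus WT, of the measured members of the lists of beta and alpha subunits, prenylation and assembly, effectors and regulators, with the SE of the fit as bars. Filled points have an adjusted p under 0.05 with the replicate number as a block. Filled points lie on both sides of 0 in every list shown.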

How the data were processed

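The authors deposited 1 table of log2 CPM for 15977 genes, a column per library with replicates not pooled. Per the submitters' processing notes, bcl2fastq 2.20, Salmon 1.1.0, R 3.6.3 and the build GRCm38 were used, and the notes give no roles. The sources used here do not say how the values were scaled, which prior count was added or how low genes were filtered. The lowest value of -4.09 was shared by all columns, and the values turned back to CPM summed to 955214 to 1069215 per library. A prior count within the log2 values understates the differences of low genes. No per-sample column was left unused. The authors' table also holds a cluster colour for some genes and a row order, a score, which was not used.

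Group and replicate number were read from the labels. Members, lists, tests and alternatives were chosen with earlier results of these data known. limma 3.58.1 in R 4.3.3 was fitted to all genes of the 9 libraries on group alone (6 residual degrees of freedom), with moderated variances that follow intensity. Tests were two-sided, at 0.05 after Benjamini-Hochberg adjustment over all genes. The fit was also run on simulated data with independent noise, a smaller spread than the real genes and no replicate effect. That check does not cover the library-wide differences seen here. An exact permutation test of 3 libraries against 3 could not go below 0.1. For S970D and WT, libraries of the same number deviated together from their group means, with correlations of 0.31, 0.11 and 0.16, so the numbers were taken as pairs there and a fit with the number as a block (4 residual degrees of freedom) is given beside it. Correlations of 0.59, 0.07 and 0.49 for S970A with WT, and of 0.38, 0.00 and 0.24 for S970D with S970A, did not meet the bound of 0.1 for every pair. The block fit still used all 9 libraries, so its replicate effects were shared with the S970A libraries. Every p-value with the block rests on that sharing and on the assumed pairing.

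All gamma subunits were named. Of each other list, genes that passed without the block were named, up to 6, and the 3 with the smallest p where fewer than 3 passed. Genes like a member were ranked by the root mean square difference over the 9 libraries, predicted models left out, 5 for Gng4 and 1 for each other. Lengths, GC content, coordinates and sequences came from GENCODE vM21, where 15959 (99.9%) of the gene IDs were found, and the mature microRNA from RefSeq. Trends with GC content and length were taken out of each library with splines of 5 degrees of freedom each. Other alternatives were a pseudocount of 1 CPM, a mean log2 CPM of at least 1, quantile normalization, median centring, only the 6 libraries compared, no intensity trend and leaving out each library.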

Additional observations from a re-analysis of the deposited data

How the results depend on the processing

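Gng4 kept its direction in all 3 comparisons under all 20 alternatives. It was chosen by its S970D minus WT difference in these libraries, so the kept direction is a description and no test. That difference was -3.32 to -2.46 over the 20 alternatives. Without each library in turn the Gng4 difference was -3.32 to -2.80 for S970D minus WT, -2.57 to -1.55 for S970A minus WT (the lowest without S970A replicate 3, a shift larger than the WT SD) and -1.46 to -0.43 for S970D minus S970A. The number of genes called between S970D and WT, 1 in the fit as described, was 7276 with the replicate block, 6727 with only the 6 libraries compared, 3957 with GC and length trends removed and the block (3951 with the shortest transcripts), 0 with a pseudocount of 1, without the intensity trend or with the GC and length trends removed and no block (with either transcript), and 0 to 7615 without each library. Gamma subunits called beside Gng4 there, 0 as described, were 1 with the replicate block, 2 with the trends removed and the block, and 0 to 2 without each library. Calls over all genes ranged from 0 to 1 for S970A against WT and from 0 to 6307 for S970D against S970A without each library, the highest without S970A replicate 1. The replicate block changed no call in those 2 comparisons, and beyond those printed in the report it changed no call of a gamma subunit. With the trends removed and the shortest transcripts, with or without the block, differences turned to -0.25 for Gng2, -0.23 for Gng5 and -0.090 for Gng7 in S970D minus WT, to -0.0082 for Gng2, -0.033 for Gng5, -0.19 for Gng7, -0.17 for Gng8 and -0.26 for Gng13 in S970A minus WT, and to -0.24 for Gng2 and -0.20 for Gng5 in S970D minus S970A. With the longest-coding transcripts they turned to -0.10 for Gng8 and -0.25 for Gng13 in S970A minus WT. Gng10 turned to 0.010 (quantile normalization) and 0.0094 (median centring) in S970D minus WT, and to 0.021 and 0.014 in S970D minus S970A. Without each library, S970A minus WT ranged from -0.15 to 0.020 for Gng10, -0.058 to 0.15 for Gng7, -0.13 to 0.52 for Gng8 and -0.96 to 0.86 for Gng13, and S970D minus S970A from -0.12 to 0.043 for Gng10. None of these turned values passed the threshold, and the cause was not tested. Depth is unknown, so its limit on low genes such as Gng13 cannot be given.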

Other observations

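The genes beside Gng4 on the chromosome did not pass between S970D and WT. Lyst, a regulator of lysosome traffic that lies 5256 bases from Gng4 on the same strand, differed by -0.61 ± 0.56 between S970D and WT (log2, SE, limma adjusted p = 0.407), and B3galnt2, a glycosyltransferase 126573 bases away, by -0.07 ± 0.15 (adjusted p = 0.717). In S970A libraries Lyst was 3.77, 4.98 and 6.56 (log2 CPM), highest in replicate 3, as was Gng4 among S970A libraries. Lyst was 4.15 to 4.23 in S970D and 4.46 to 5.06 in WT libraries. B3galnt2 was 3.33 to 3.55 in S970A libraries. A link between the Lyst and Gng4 values was not tested. Spata1 and Rpf1, which lie 54 and 384 bases from Gng5 on the opposite strand, differed by -0.24 ± 0.26 and -0.16 ± 0.13 between S970D and WT (log2, SE), with limma adjusted p-values of 0.490 and 0.320. Dnajc25, 9515 bases from Gng10 on the same strand, was at -0.90 ± 0.25 (log2, SE) with limma adjusted p-values of 0.0756 without and 0.00683 with the block, and Ugcg, on the other side of Gng10, was at -1.22 ± 0.44 (0.0782 without and 0.0202 with the block). Of the other genes nearest to or overlapping the gamma subunits, Saysd1 beside Gng2, Gadd45b and Diras1 beside Gng7, Dact3 beside Gng8, Chtf18, Lmf1 and Rpusd1 at Gng13 and Snf8 beside Gngt2 passed with the block, at 0.41 to 1.68, and Rtraf, Ptgir, Abi3 and Zfp652 did not, at -0.16 to 0.67 (log2, limma). In the authors' deposited table Gng4 has the cluster colour yellow, given to 484 genes, Gng2, Gng5 and Gngt2 have blue, given to 2194, and Gng8 has brown, given to 785. Gng7, Gng10 and Gng13 have no colour there, and the rule behind the colours is not given in the sources used here.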
